A study of Mus musculus with 2 samples.

Results

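The 9 genes described here encode transcription factors that steer myeloid cells towards granulocyte or mononuclear fates, and were chosen by symbol from the 32285 genes of the deposited tables: Cebpe, Gfi1, Irf8, Klf4, Maf, Zeb2, Cebpa, Cebpb and Spi1. They were measured in single cells from 2 mouse cultures of myeloid-derived suppressor cells, immature myeloid cells that restrain T cells. IL-6 and GM-CSF at 40 ng/mL each drove differentiation in both, and cells were taken at day 4. One was exposed to 50 nM Selinexor, a small molecule that blocks the nuclear export receptor exportin 1, and the other to its vehicle, DMSO. The labels used here name no strain, age or tissue for the starting cells, so the groups are 2 cultures of unstated origin. Live CD11b+ cells were sorted after tagging, so cells without CD11b were not sampled, and the tagged suspensions were pooled before droplet capture.

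C/EBP factors, PU.1 (encoded by Spi1), IRF8, KLF4 and GFI1 form a network in which shared factors open the myeloid programme and opposing factors then divide it. C/EBP epsilon and GFI1 carry the granulocyte side: C/EBP epsilon is needed for the specific granules of maturing neutrophils, and GFI1 is a repressor that holds back monocyte genes in granulocyte precursors. IRF8 and KLF4 carry the monocyte side, and IRF8 is also needed for dendritic cells. Suppressor cell cultures hold both arms, as granulocyte-like and monocyte-like cells.

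After filtering, 1739 DMSO cells with 14178756 UMIs (unique molecular identifiers, which count captured transcript molecules) and 1962 Selinexor cells with 12771314 UMIs remained. The median cell held 7785 and 3912 UMIs, and 314 DMSO against 783 Selinexor cells held under 2000. Each group has 1 library, so no difference below has a replicate check, no test was possible, and every interval covers counting error only. Cells were grouped into 12 clusters on variable genes that left out the 9 factors. Names rest on marker genes: clusters 10 (early), 7 and 2 (intermediate) and 0, 3 and 9 (late) were neutrophil-like, cluster 1 was macrophage-like and cluster 11 dendritic cell-like. In cluster 1 Mrc1, Pf4, Apoe and Gpnmb were at least 2-fold above the other cells, and so were the monocyte markers Ccr2, Fn1, F13a1 and Csf1r. The remaining macrophage markers, C1qa, C1qb, C1qc and Adgre1, were not. The mean log2 ratio to the other cells was 1.32 over the macrophage and 1.05 over the monocyte markers, so the name is loose. No marker set named clusters 4 (led by Csta3 and Dmkn), 5 (led by histone and mitotic genes), 6 (led by Gpnmb) and 8 (led by Ccl17, with MHC class II, C1qa and Mcpt8). Cluster sizes differed widely: cluster 4 held 337 DMSO and 12 Selinexor cells, cluster 3 held 381 and 38, cluster 0 held 122 and 663, cluster 1 held 113 and 335, and cluster 6 held 57 and 212.

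Promoter sequences are shown for Irf8 and Klf4, the monocyte factors that were both higher in the Selinexor library. Each is the 250 bases before the RefSeq transcription start on GRCm38.p6, read 5′ to 3′ on the gene's strand. Irf8 is at chr8:120736108-120736357 on the plus strand and Klf4 at chr4:55532476-55532725 on the minus strand. Capitals mark matches to the gamma-activated sequence TTCNNNGAA, the element that STAT factors bind after interferon or IL-6 family signals.
Irf8: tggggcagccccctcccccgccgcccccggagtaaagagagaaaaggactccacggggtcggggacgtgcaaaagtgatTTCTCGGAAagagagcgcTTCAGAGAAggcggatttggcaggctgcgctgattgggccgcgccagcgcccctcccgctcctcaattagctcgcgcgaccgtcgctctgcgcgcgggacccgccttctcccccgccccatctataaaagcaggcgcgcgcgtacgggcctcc
Klf4: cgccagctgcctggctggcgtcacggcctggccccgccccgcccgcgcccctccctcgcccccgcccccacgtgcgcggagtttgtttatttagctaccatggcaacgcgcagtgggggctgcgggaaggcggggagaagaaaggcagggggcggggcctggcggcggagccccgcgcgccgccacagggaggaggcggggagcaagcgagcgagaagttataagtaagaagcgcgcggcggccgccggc
The Irf8 window held 2 matches, TTCTCGGAA at 171 to 163 bases and TTCAGAGAA at 153 to 145 bases before the start, whereas the Klf4 window held 0. Of 32851 promoter windows of the same length, 7.02% held at least 1 match. The other 5 motifs searched on both strands were the interferon-stimulated response element, TTGCNNAA (C/EBP), GAGGAA (PU.1), CCACCC (KLF) and AAATCA (GFI1). In the Irf8 window only AAATCA was found, once and on the other strand at 175 to 170 bases, where it shares bases with the first gamma-activated sequence; 12.4% of all windows hold it. None of the 5 was found in the Klf4 window. These are letter matches, and no binding was measured.

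Irf8 and Klf4 were higher in the Selinexor library, Cebpe and Maf were lower, and the other 5 factors differed by less than 1.5-fold. By GENCODE on build mm10, these 4 genes lie at chr8:120736358-120756694 (Irf8, plus strand), chr4:55527143-55532466 (Klf4, minus strand), chr14:54710360-54712174 (Cebpe, minus strand) and chr8:115682942-115707794 (Maf, minus strand). Levels are CPM, a factor's summed UMIs scaled to the total of the library or cluster, and log2 ratios are log2(CPM + 1) in Selinexor minus DMSO. In a sum over a culture, fewer cells of a type and less RNA per cell cannot be told apart. Among the 10386 genes that reached 50 UMIs in the libraries together, 9.83% were at least 1.5-fold higher and 3.87% lower (13.7% in all), beside 2 and 2 of the 9 factors. The median log2 ratio was 0.13 over all these genes and -0.06 over the 9 factors.

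**Figure D1:**
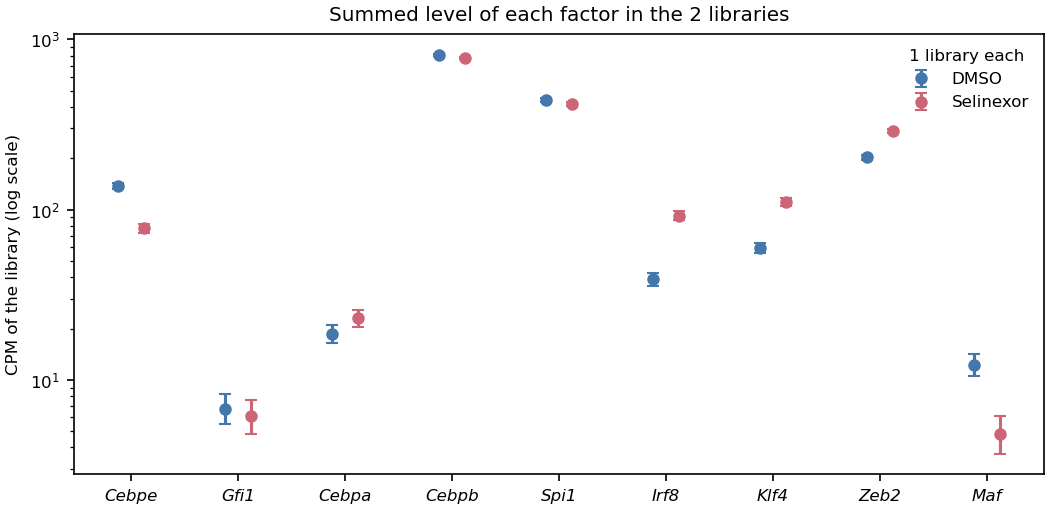
Summed level of each factor in the DMSO and Selinexor libraries, in CPM on a log axis; points are the 2 libraries and bars are exact 95% Poisson intervals, which cover counting error only. Irf8 and Klf4 lie higher and Cebpe and Maf lower in the Selinexor library, with no overlap of their bars, while the pairs for Cebpb and Spi1 are close together.

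Cebpe was the more abundant granulocyte factor by count and was lower in the Selinexor library. It had 1950 UMIs in the DMSO library (138 CPM) and 992 in the Selinexor library (77.7 CPM), a log2 ratio of -0.82 (95% interval -0.94 to -0.71). A UMI was found in 487 of 1739 DMSO cells (28.0%) and 352 of 1962 Selinexor cells (17.9%). These shares also depend on depth, and the median Selinexor cell held fewer UMIs. With cells drawn down to equal depth and shallower cells left out, the shares were closer. They were 17.9% of 1425 DMSO cells and 13.1% of 1179 Selinexor cells. The transcript sat in the granule-forming stages. In early neutrophil-like cluster 10, which makes primary granule proteins, Cebpe stood at 493 CPM in DMSO cells and 275 CPM in Selinexor cells, with 79 and 30 cells. Cluster 7, the deeper of the intermediate clusters, had 526 and 320 CPM, a log2 ratio of -0.71 (interval -0.89 to -0.55) over 139 and 126 cells. Cluster 2 had 326 and 245 CPM, a log2 ratio of -0.41 (interval -0.64 to -0.19) over 215 and 212 cells. All 3 clusters of granule-forming cells thus had a lower Cebpe CPM in the Selinexor library, and cluster 7 passed 1.5-fold among those with at least 50 cells per library. Macrophage-like cluster 1 had 9.61 and 10.0 CPM.

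Early neutrophil-like cluster 10 made up 4.54% of DMSO and 1.53% of Selinexor cells, and its Cebpe CPM was also lower in Selinexor cells. The parts of cell number and of level in the library-wide difference were not tested. Cluster 10 supplied 29.1% of the Cebpe UMIs of the DMSO library and 12.6% of those of the Selinexor library. Without cells that held a UMI of the proliferation genes Mki67 or Top2a, the log2 ratio of Cebpe was -0.41, under 1.5-fold. Such cells made up 40.9% of DMSO and 36.6% of Selinexor cells, and over 90% of clusters 7 and 10 in both libraries. Among the cells of cluster 7 that held one, Cebpe stood at 529 and 326 CPM, and in those of cluster 10 at 493 and 265 CPM. In cluster 2 it stood at 457 and 283 CPM in cells with a proliferation UMI and at 272 and 218 CPM in cells without one. With the same mix of clusters of at least 20 cells per library in both libraries, the log2 ratio of Cebpe was -0.64, still past 1.5-fold. In 1 random draw of 2000 UMIs per cell it was -0.58, just under 1.5-fold. With cells of at least 2000 UMIs weighted equally it was -0.61, past 1.5-fold.

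Gfi1 was scarce, and its levels overlapped. It had 96 UMIs in the DMSO library (6.77 CPM) and 78 in the Selinexor library (6.11 CPM), a log2 ratio of -0.13 with an interval of -0.60 to 0.30. Of these, 64 and 30 UMIs came from cluster 10, where the levels were 55.6 and 65.9 CPM. Cluster 7 had 15.4 and 18.1 CPM, a log2 ratio of 0.22 (interval -0.63 to 1.11). Outside clusters 10, 7 and 2 no cluster held more than 7 Gfi1 UMIs in a library. Within clusters 7 and 10, Cebpe was thus lower in Selinexor cells while Gfi1 was not detectably different at this depth.

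Irf8 had 551 UMIs in 310 cells of the DMSO library (38.9 CPM) and 1178 UMIs in 429 cells of the Selinexor library (92.2 CPM), a log2 ratio of 1.23 (interval 1.10 to 1.40). A few cells carried much of this. Dendritic cell-like cluster 11, marked by Ccr7, Fscn1 and Ccl22, held 5 DMSO and 34 Selinexor cells. Its Irf8 level was 729 CPM in DMSO and 1114 CPM in Selinexor cells, the highest of any cluster in each library. Those 34 cells supplied 36.2% of the Irf8 UMIs of the Selinexor library, against 8.17% from the 5 DMSO cells. In all other cells, also without the 5 DMSO cells rich in the basophil genes Mcpt8 and Prss34, Irf8 stood at 35.9 and 60.7 CPM, a log2 ratio of 0.76 (interval 0.59 to 0.92) with no pseudocount. Cells with at least 10 Irf8 UMIs numbered 3 in the DMSO library and 23 in the Selinexor library, and 21 of the 23 were in cluster 11.

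Outside the dendritic cell-like cells, Irf8 was spread over macrophage-like cluster 1 and unnamed clusters. Cluster 5 had 43.8 CPM (DMSO) and 81.8 CPM (Selinexor), a log2 ratio of 0.89 (interval 0.54 to 1.26). Cluster 1 had 76.9 and 101 CPM, a log2 ratio of 0.39 (interval 0.07 to 0.73), under 1.5-fold. Cluster 8 had 89.5 and 93.3 CPM and intervals that overlapped. In cluster 6 the levels were 21.6 and 55.7 CPM, but 4 DMSO UMIs stand behind the first value, and the median depth of its cells was 1803 UMIs in DMSO and 6788 in Selinexor. Neutrophil-like clusters held little: cluster 7 had 7 and 17 UMIs (4.69 and 11.9 CPM), and its interval included equality. Cluster 2 held 0 DMSO UMIs, which allows up to 3 counts, and 5 Selinexor UMIs. Cluster 4, nearly all DMSO cells, held 138 Irf8 UMIs (40.4 CPM) and 285 Klf4 UMIs (83.5 CPM) in that library.

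Klf4, the factor that drives monocyte differentiation downstream of PU.1, had 848 UMIs in the DMSO library (59.8 CPM) and 1420 in the Selinexor library (111 CPM), a log2 ratio of 0.88 (interval 0.77 to 1.02). Cluster 1 supplied 18.8% of the DMSO and 59.9% of the Selinexor UMIs. Its level was also higher within that cluster, at 127 and 207 CPM, a log2 ratio of 0.70 (interval 0.46 to 0.96). Cells with at least 5 Klf4 UMIs numbered 23 in the DMSO library and 91 in the Selinexor library, 55 of the latter in cluster 1. In cluster 5 Klf4 stood at 103 and 148 CPM, a log2 ratio of 0.52 (interval 0.28 to 0.77), just under 1.5-fold. Clusters 6 and 8 had 80.9 and 122 CPM, and 62.4 and 82.1 CPM, with intervals that included equality. Unlike Irf8, Klf4 was nearly missing from the dendritic cell-like cells, where 0 DMSO and 3 Selinexor UMIs were counted.

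Both monocyte factors were also compared with the same cluster mix in both libraries. With clusters of at least 20 cells per library given the same weight in both libraries, the log2 ratio of Irf8 was 0.52 and that of Klf4 0.58, so neither reached 1.5-fold, and Zeb2 was at 0.04.

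**Figure D2:**
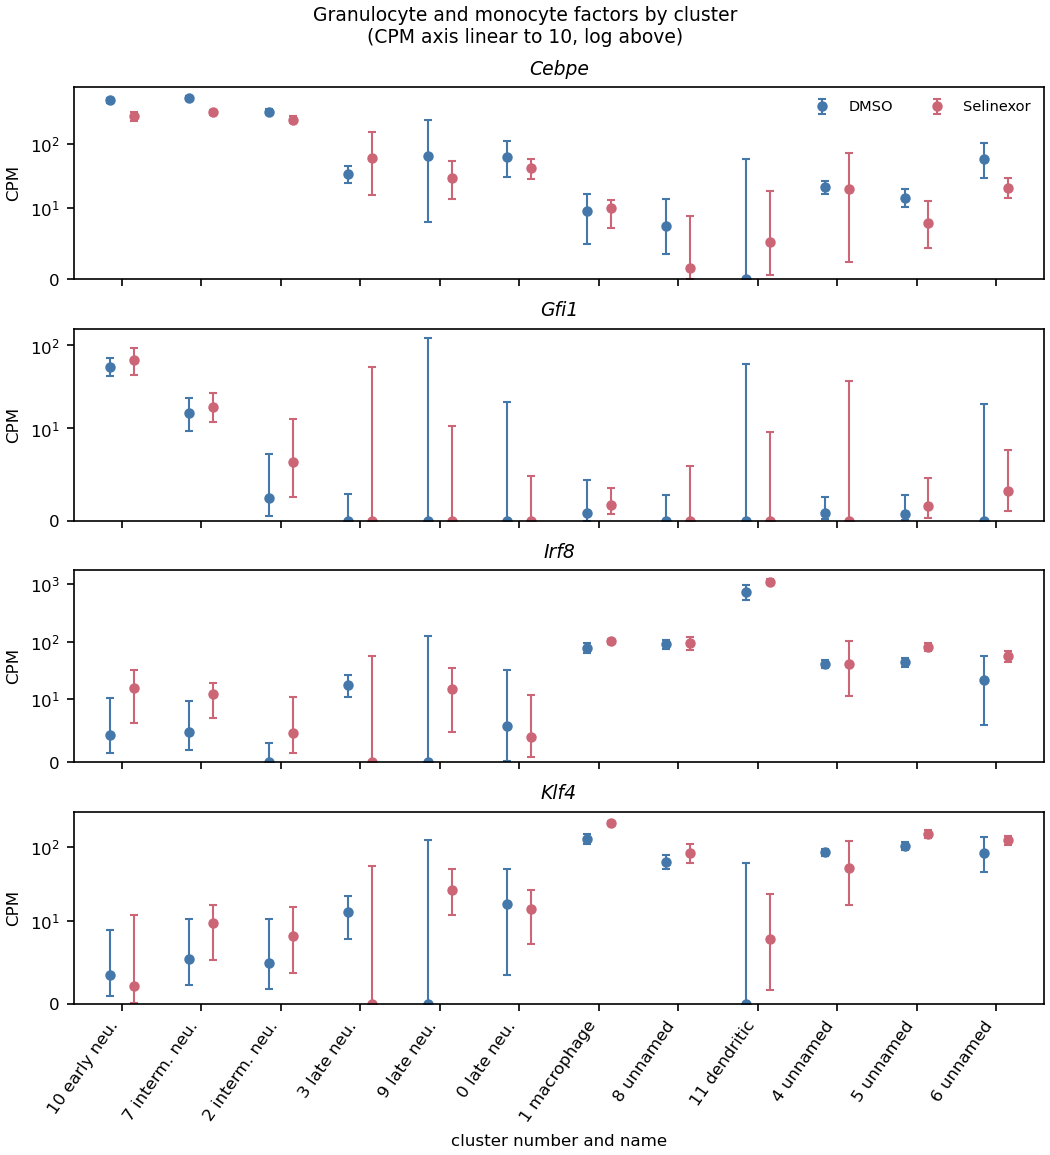
Level of the granulocyte factors Cebpe and Gfi1 and the monocyte factors Irf8 and Klf4 in each of 12 clusters, as CPM of the cluster's UMIs on an axis that is linear up to 10 and logarithmic above; points are the DMSO and Selinexor cells of a cluster and bars are exact 95% Poisson intervals. Cebpe lies lower in Selinexor cells of clusters 10, 7 and 2, whereas Klf4 lies higher in cluster 1 and Irf8 is highest in dendritic cell-like cluster 11.

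Zeb2 and Maf act later on the mononuclear side. ZEB2 is a repressor needed for monocyte and dendritic cell subsets, and MAF supports macrophage identity. Zeb2 had 2874 UMIs in the DMSO library (203 CPM) and 3699 in the Selinexor library (290 CPM), a log2 ratio of 0.51 (interval 0.44 to 0.59). It was abundant in cluster 1 (487 and 427 CPM) and in late neutrophil-like cluster 9 (502 and 565 CPM), and low in early cluster 10 (22.6 and 33.0 CPM). Cluster 7 was the only compared cluster past 1.5-fold, with 39 DMSO UMIs (26.1 CPM) and 99 Selinexor UMIs (69.1 CPM); the log2 ratio was 1.37 (interval 0.86 to 1.98). Cebpe, summed over the same cluster, was lower. At 2000 UMIs per cell, 4.97% of DMSO and 12% of Selinexor cells of cluster 7 held a Zeb2 UMI.

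Maf had 174 UMIs in the DMSO library (12.3 CPM) and 61 in the Selinexor library (4.78 CPM), a log2 ratio of -1.20 (interval -1.81 to -0.93). A handful of DMSO cells carried the difference. Macrophage-like cluster 1 held 117 DMSO UMIs (93.7 CPM) and 18 Selinexor UMIs (4.39 CPM), although it had 113 DMSO and 335 Selinexor cells. Cells with at least 5 Maf UMIs numbered 8 in the DMSO library, 7 of them in cluster 1, and 0 in the Selinexor library. Those 8 cells held 98 Maf UMIs, with 196 UMIs of Pf4 and 17 of C1qa. Pf4, a gene of resident-type macrophages, had 454 UMIs in the DMSO and 54 in the Selinexor library. Cells with any Maf UMI were 66 and 55, and at equal depth 1.45% and 1.52% of cells held one. In 1 random draw of 2000 UMIs per cell the log2 ratio of the summed Maf UMIs was -0.51, under 1.5-fold. Without cells holding Mki67 or Top2a it was -0.68. With the same cluster mix in both libraries it was -2.35, further from 0 than the reported value. In cluster 2 Maf went the other way, with 3 DMSO and 14 Selinexor UMIs.

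The shared factors differed little between the libraries. Spi1 had 6228 and 5354 UMIs (439 and 419 CPM), a log2 ratio of -0.07 (interval -0.12 to -0.01), and none of its 7 compared clusters passed 1.5-fold. Its level lay between 358 and 648 CPM in every cluster of either library except cluster 11, which had 227 and 209 CPM. Cebpb, the C/EBP factor of emergency granulopoiesis and of suppressor cell function, had 11462 and 9928 UMIs (808 and 777 CPM), a log2 ratio of -0.06 (interval -0.10 to -0.02). It was highest in the late neutrophil-like cells of cluster 0, at 1746 and 1638 CPM, and lowest in cluster 11, at 81.0 and 44.4 CPM. Cluster 8 was its only compared cluster past 1.5-fold, with 347 CPM (DMSO) and 212 CPM (Selinexor), a log2 ratio of -0.71 (interval -1.0 to -0.43). Cluster 8 also held basophil genes in the DMSO library: 5 DMSO and 0 Selinexor cells of the cultures held at least 5 UMIs of Mcpt8 and Prss34 together, and their part in the difference was not tested.

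Cebpa, which starts the granulocyte-monocyte programme in progenitors, had 265 and 294 UMIs (18.7 and 23.0 CPM), a log2 ratio of 0.29 (interval 0.06 to 0.55). Its clusters went in both directions. Cluster 8 had 39.8 and 74.0 CPM, a log2 ratio of 0.88 (interval 0.29 to 1.49), whereas cluster 2 had 21.4 and 9.09 CPM, a log2 ratio of -1.15 (interval -2.45 to -0.13) from 26 and 10 UMIs. Early neutrophil-like cluster 10 had 43.4 and 52.7 CPM with overlapping intervals.

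**Figure D3:**
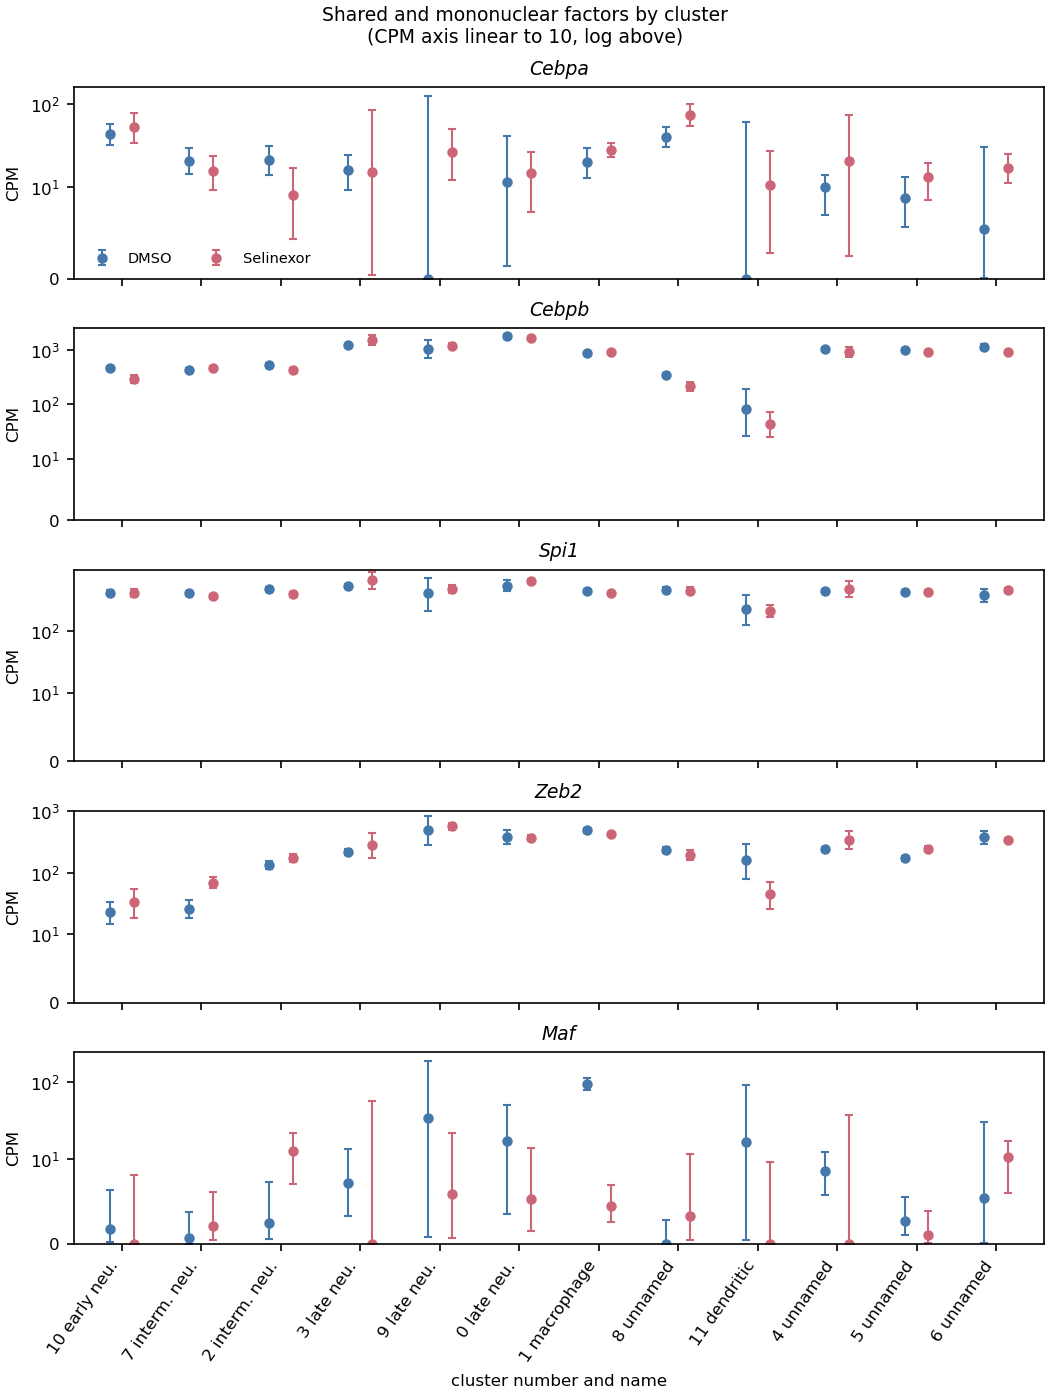
Level of the shared factors Cebpa, Cebpb and Spi1 and of the mononuclear factors Zeb2 and Maf in each of 12 clusters, as CPM on an axis linear up to 10 and logarithmic above; points are the DMSO and Selinexor cells and bars are exact 95% Poisson intervals. Spi1 and Cebpb are nearly level between the libraries in most clusters, and Maf stands apart in cluster 1, where DMSO cells had 93.7 CPM and Selinexor cells 4.39 CPM.

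Over the 7 clusters with at least 50 cells in each library, 45 factor-cluster pairs had at least 20 UMIs. Of these, 8 were at least 1.5-fold higher and 6 lower in Selinexor cells, together 31.1%. Over all genes and the same clusters, 14.5% were higher and 11.3% lower (25.8% in all), so the factors stood near the background. In cluster 7, Irf8, Klf4 and Zeb2 were higher and Cebpe lower among 8 factors compared, where 8.7% of all genes were higher and 9.24% lower; Klf4 rests there on 8 and 14 UMIs, with an interval of -0.49 to 2.33. In cluster 6, Irf8 and Cebpa were higher and Cebpe lower among 7 factors, with 1 DMSO UMI behind Cebpa (interval -0.95 to 7.02), but 25.2% and 16.3% of all genes (41.6% together) differed as much, with 57 DMSO cells of low depth. Cluster 1 had Klf4 higher and Maf lower among 8 factors, beside 9.6% and 9.36% of all genes (19% together). Cluster 5 had Irf8 higher and Cebpe lower among 7, beside 15.9% and 6.75%. In cluster 8 Cebpa was higher and Cebpb lower among 6 (24.2% of all genes in either direction), and in cluster 2 Cebpa was lower among 5 (11.8% of all genes lower). Cluster 0 had 0 of 4 factors past 1.5-fold, beside 36.1% of all genes. Counted by factor, Irf8 was higher in 3 of 5 clusters and lower in 0, Klf4 higher in 2 of 5 and lower in 0, and Cebpe lower in 3 of 6 and higher in 0. Intervals that exclude equality leave cluster 5 for Irf8, cluster 1 for Klf4, and clusters 6 and 7 for Cebpe, where cluster 6 rests on 11 DMSO UMIs.

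A single ratio of summed UMIs compares the granulocyte with the monocyte factors. Counts of different genes were not put on a common scale, so only the difference of this ratio between libraries is read. Its granulocyte side is nearly all Cebpe, with 1950 UMIs in the DMSO and 992 in the Selinexor library. Cebpe and Gfi1 together had 2046 UMIs and Irf8 and Klf4 together 1399 in the DMSO library, a log2 ratio of 0.55. The Selinexor library had 1070 and 2598, a log2 ratio of -1.28. The difference was -1.83 (interval -1.97 to -1.68), towards the monocyte factors. With the same cluster mix in both libraries, which leaves out clusters 4, 9 and 11, it was -1.15. Within clusters it was -1.79 in cluster 7 (interval -2.79 to -0.83), -1.76 in cluster 2 (interval -3.44 to -0.26), -1.86 in cluster 10 (interval -3.42 to -0.25) and -1.34 in cluster 5 (interval -2.26 to -0.48). In the neutrophil-like clusters these values rest on few monocyte factor UMIs, 15 and 31 in cluster 7, 6 and 14 in cluster 2 and 9 and 8 in cluster 10. In cluster 6 it was -2.08 (interval -3.35 to -0.74). Behind its DMSO value stand 11 granulocyte and 19 monocyte factor UMIs, from 57 cells with a median of 1803 UMIs. Intervals included 0 in cluster 1, at -0.42 (-1.36 to 0.61), cluster 0, at -0.27 (-2.60 to 1.80), cluster 8, at -2.43 (-7.88 to 0.42), and cluster 4, at 0.31 (-2.97 to 2.62).

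In single cells the granulocyte and the monocyte factors were seldom found together. Cells were compared at 2000 UMIs each, since deeper cells show more genes, which left 1425 DMSO and 1179 Selinexor cells; shares are means over all possible draws of 2000 UMIs from each cell. Cebpe or Gfi1 alone was found in 17.7% of DMSO and 13% of Selinexor cells. Irf8 or Klf4 alone was found in 12.9% and 24.1%. Both kinds were found in 0.57% and 0.82%, or 8.15 and 9.65 cells, where the product of the shares would give 2.46% and 3.44%. That product pools all clusters, so a difference between clusters and exclusion within a cluster cannot be told apart in it. One random draw gave 3 of 1425 cells (0.21%, Clopper-Pearson interval 0.04 to 0.61) and 14 of 1179 (1.19%, interval 0.65 to 1.98), so the gap between the libraries in that draw shrank over all draws. At full depth 98 DMSO cells (5.64%) and 86 Selinexor cells (4.38%) held both kinds, of 1739 and 1962. No difference in joint detection between the libraries was detectable at this depth.

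The 2 kinds of factor lay mainly in different clusters. At 2000 UMIs both kinds were found in 0.85% of DMSO and 1.28% of Selinexor cells of cluster 1. In cluster 7 they were found together in 0.83% and 0.80%. Of cluster 7, 61.6% of DMSO and 44.2% of Selinexor cells held a granulocyte factor alone at 2000 UMIs, and of cluster 10, 64.7% and 43.3%. Cluster 1 had a monocyte factor alone in 33.0% of DMSO and 44.5% of Selinexor cells, and cluster 11 in 70.4% and 83.6%. A granulocyte factor alone was found in 1.28% and 1.13% of cluster 1, where Cebpe is not anticipated, and a monocyte factor alone in 1.02% and 2.45% of cluster 7. These low shares leave out cells with both kinds, so they are no direct yardstick for joint detection. The part of free RNA in them was not tested. Median depths were 10680 and 11944 UMIs in cluster 1 and 10407 and 11292.5 UMIs in cluster 7.

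**Figure D4:**
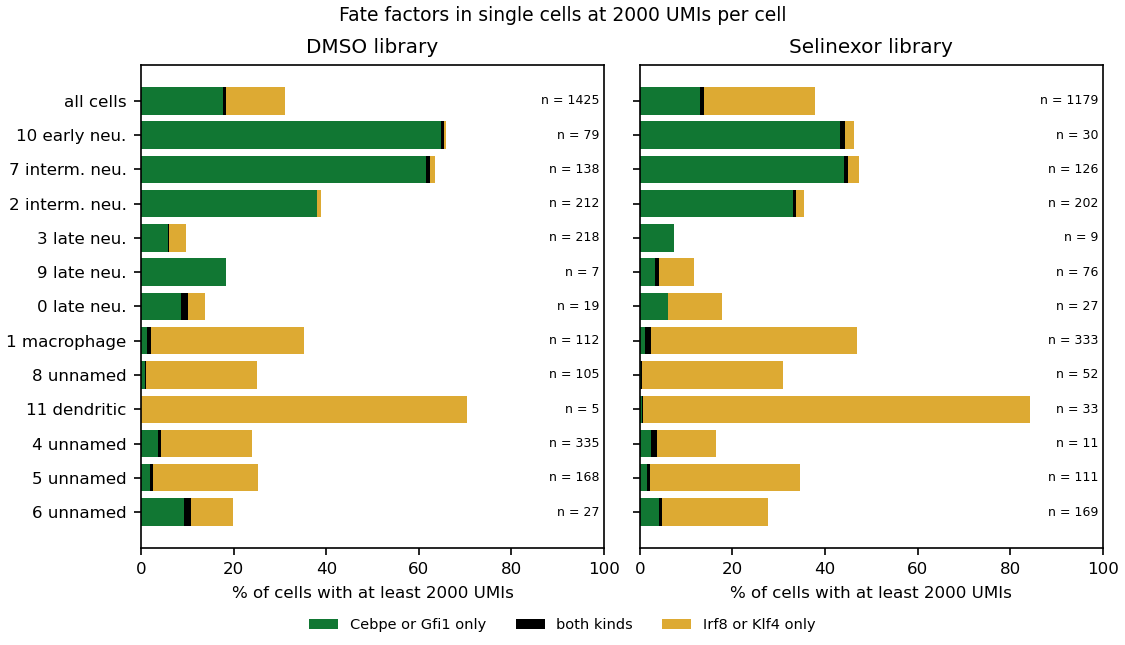
Share of cells with at least 2000 UMIs in which Cebpe or Gfi1 only, Irf8 or Klf4 only, or both kinds were found at 2000 UMIs per cell, as a mean over all draws, for all cells and each cluster; the number of cells stands beside each bar. Neutrophil-like clusters 10, 7 and 2 hold the granulocyte factors, clusters 1 and 11 the monocyte factors, and both kinds share few cells in either library.

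Pairs of factors were counted in the same way, with the product of shares again taken over all clusters together. At 2000 UMIs, Irf8 and Cebpe were found together in 2.66 DMSO and 3.82 Selinexor cells, against 14.2 and 17.6 from the product of their shares. Klf4 and Cebpe met in 5.39 and 5.58 cells, against 22.4 and 24.8. Some pairs met more often than the product: Cebpe and Gfi1 in 8.03 and 4.53 cells, against 2.49 and 1.76, and Klf4 and Zeb2 in 51.3 and 98.6 cells, against 36.8 and 72.7. Irf8 and Klf4 met in 12.9 and 31.1 cells, against 7.02 and 21.7. Counts with Maf were small in the Selinexor library, where Irf8 and Maf met in 1.06 cells against 2.05, and Cebpe and Maf in 2.68 against 2.35. Cells of 1 library are not replicates, and these counts are descriptions.

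Over 21 sums of a cluster in a library with at least 30 cells, levels as log2(CPM + 1) gave Pearson r of -0.76 for Irf8 and Cebpe, 0.64 for Irf8 and Klf4 and 0.72 for Cebpe and Gfi1. The points share libraries and some share cell types, so r is a description. The genes most like each factor over these sums were Prss57, Prtn3 and Myb for Gfi1 (r of 0.93, 0.91 and 0.89), and G0s2, Sept1 and Pglyrp1 for Cebpe (0.92, 0.91 and 0.91). For Klf4 they included Pld4 and Pid1 (0.95 and 0.92), and for Irf8 they were Myo10, Nenf and Eif4b (0.92, 0.91 and 0.91). Zeb2 was followed by Sirpa, Tlr2 and Lrp12 (0.98, 0.96 and 0.95), and Cebpb by F10, Fcer1g and Cyp4f18 (0.93, 0.93 and 0.92). Maf and Cebpa had no gene above 0.75, and Maml1 led for Spi1 at 0.91.

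Genes known to answer to these factors were compared in the summed libraries, with lists chosen with earlier results of these data known; 9.83% of all genes were higher and 3.87% lower. All 5 primary granule genes were past 1.5-fold on the lower side in Selinexor cells, with a median log2 ratio of -1.47; Ctsg was at -1.55, Mpo at -1.51 and Prtn3 at -1.47. All of them led or marked cluster 10, which held 79 DMSO and 30 Selinexor cells. Of 7 specific granule genes, which need C/EBP epsilon, 0 passed in either direction, with a median of -0.09; Lcn2 was at -0.49, Chil3 at 0.46 and Mmp8 at 0.42. Of 8 monocyte genes, 3 were higher and 1 lower: F13a1 at 0.81, Ly6c2 at 0.70, Ctss at 0.60 and Ms4a6c at -1.52. Of 5 measured macrophage genes, 1 was higher and 4 lower, with a median of -2.10; C1qa was at -2.83 and Pf4 at -2.66, and Mrc1, at 1.07, was the higher one. Among 6 myeloid receptor genes, Fcgr1 was lower at -0.94 and 0 were higher.

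Other regulators of the same fates were compared in the same sums, where 13.7% of all genes were past 1.5-fold. Of 8 further granulopoiesis regulators, 2 were higher and 0 lower: Stat3, which carries the IL-6 signal, at 0.68, and Runx1 at 0.67. Of 13 monocyte and macrophage regulators, 2 were higher and 1 lower: Bhlhe41 at 2.09 from 15 and 99 UMIs, Nr1h3 at 0.90 and the immediate early gene Egr1 at -1.18. Among 7 measured dendritic cell regulators, Irf4 was higher at 0.66 and Batf3 lower at -0.62. Of 6 measured progenitor regulators, Sox4 was higher at 2.23 and Erg at 0.59. The 5 corepressors that work with GFI1, among them Kdm1a and Rcor1, gave 0 in either direction. Some proteins of the Tribbles family, with their partner ligase COP1, can mark C/EBP proteins for degradation. Of 3 measured genes of this group, Cop1 was higher at 0.63 and Trib3 lower at -0.74, while Trib1, at -0.08, passed in neither direction.

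**Figure D5:**
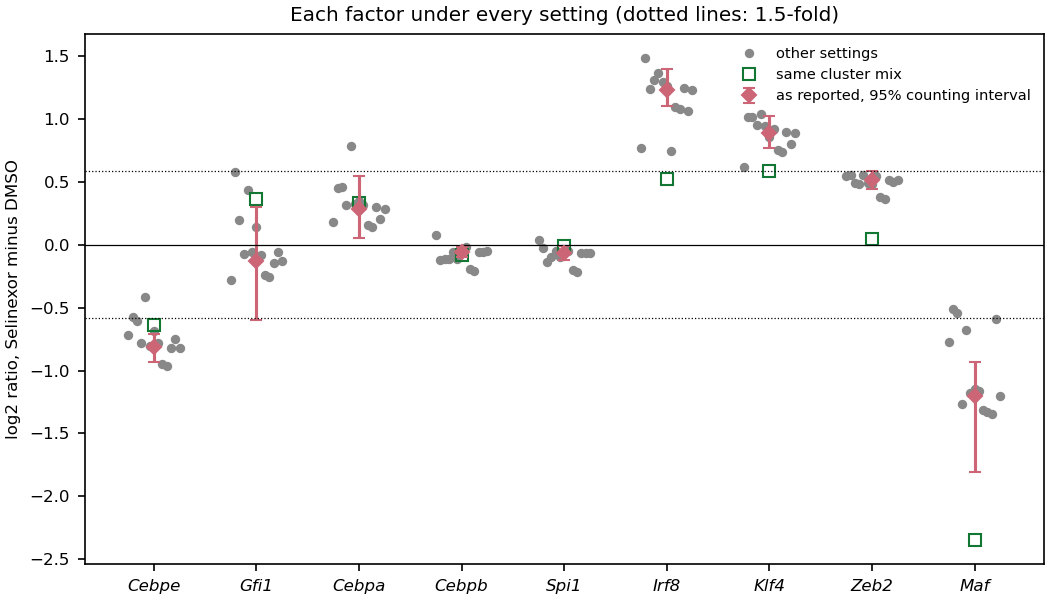
Log2 ratio of each factor, Selinexor minus DMSO: diamonds are the reported values with their 95% counting intervals, grey points are the same ratio under other filters, weights, depths and scalings, and squares give both libraries the same cluster mix; dotted lines mark 1.5-fold. Irf8 and Klf4 stay above 0 and Cebpe and Maf below 0 in every setting shown, the squares for Irf8 and Klf4 lie at 0.52 and 0.58, and Gfi1, Cebpb and Spi1 fall on both sides of 0.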

How the data were processed

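Single-cell transcriptomes of 1 DMSO and 1 Selinexor culture were analysed. The deposited matrices hold raw UMI counts per gene and cell, which the authors obtained with Cell Ranger 6.1.2 on build mm10, per the submitters' processing notes; the sources used here do not give the annotation release or the cell-calling rule. The 9 members and all gene lists were chosen with earlier results of these data known. From 1784 and 1989 deposited barcodes, of which 0 were shared, cells were kept when they had 200 or more genes and a mitochondrial share under 10%. Multiplexing tags entered no gene total. The Scrublet method (scanpy 1.11.5) marked 9 cells at a score of 0.333, the automatic threshold of the Selinexor library, used for both libraries since that of the DMSO library moved with the processor's arithmetic. That is under 0.5% of cells, and doublets must be taken as still present.

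Cells were clustered together on 2000 variable genes without the 9 members (30 principal components, 15 neighbours, Leiden resolution 1 with leidenalg 0.10.2, best of 20 starts). A cluster was named when at least 3 markers of a class were 2-fold higher and no other class had as many among its 10 leading genes. Summed counts were scaled to CPM, and log2 ratios use a pseudocount of 1 CPM, which understates ratios of low genes. Sums have exact Poisson, ratios exact conditional binomial and shares of cells Clopper-Pearson 95% intervals. PCR copies were collapsed by UMI; intervals cover counting error only. A gene counted as past the threshold at 1.5-fold, with at least 50 UMIs over both libraries (20 for a member in a cluster). Members are named in full, up to 4 genes per list by absolute ratio, and 3 genes per member by correlation, of which 1 is not reported here. Alternatives covered cell weights, depth, filters, scaling (edgeR 4.0.16 TMM and median of ratios), pseudocount and clustering; those leaving out the dendritic cell-like cluster, keeping doublet calls, averaging over all draws and weighting cells of at least 2000 UMIs equally were added after seeing the data. The ratio script was tested on simulated data. Gene coordinates are from GENCODE on the same build, and promoters from RefSeq on GRCm38.p6, where 6 of 9 members matched; Cebpe, Spi1 and Maf did not.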

Additional observations from a re-analysis of the deposited data

Results flagged for a closer look

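Cebpa differed in opposite directions in 2 clusters. In cluster 8, led by Ccl17 and MHC class II genes, its log2 ratio was 0.88 (53 DMSO and 46 Selinexor UMIs), and in intermediate neutrophil-like cluster 2 it was -1.15 (26 and 10 UMIs). Both counting intervals exclude equality. The difference between the clusters was not tested, since each group holds 1 library.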

How the results depend on the processing

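No paired analysis was possible because each group holds 1 library. Irf8, Klf4, Cebpa and Zeb2 stayed above 0 and Cebpe and Maf below 0 in all 14 alternatives. The count of factors at least 1.5-fold higher, 2 as reported, was 0 with the same cluster mix in both libraries and 2 or 3 in the other 13. The same cluster mix leaves out clusters 4, 9 and 11. The count lower, also 2, was 0 in 1 random draw of 2000 UMIs per cell and 1 with cells holding Mki67 or Top2a left out. It was 1 with cells of at least 2000 UMIs weighted equally, where Cebpe, at -0.61, stayed past 1.5-fold. The balance of granulocyte against monocyte factors, -1.83 as reported, was -1.41 with cells weighted equally, -1.60 without cells holding Mki67 or Top2a, -1.62 without the dendritic cell-like cluster and basophil-gene cells, and -1.15 with the same cluster mix. The share of cells with both kinds of factor was 0.24% in Selinexor cells at 1000 UMIs, 2.10% in DMSO and 2.45% in Selinexor cells at 4000, 5.64% and 4.38% without thinning, and 6.81% and 7.21% without thinning in cells of at least 2000 UMIs, so its size is set by depth. The share of factor-cluster pairs past 1.5-fold lay between 23.3% and 38.1% over 4 alternatives, beside 31.1%. TMM and median-of-ratios scaling ended no call.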
